A study of Caenorhabditis elegans with 15 samples.

Results

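The cyp-35 genes encode a subfamily of the cytochromes P450 of Caenorhabditis elegans. The 9 genes cyp-35A1 to cyp-35A5, cyp-35B1, cyp-35B2, cyp-35C1 and cyp-35D1 were taken by name from a table of read counts of 20541 genes. The family was picked because members were already known to be lower with ursolic acid in these libraries, so the comparisons of ursolic acid with either control describe the choice and carry no test here. RNA sequencing was performed on whole wild-type N2 animals, fed for 34 h until the third larval stage and kept for a further 12 h until the fourth. One group received ursolic acid (UA, a pentacyclic triterpenoid of plants) at 50 µM, another only its solvent DMSO, and the third no treatment. Each group had 5 libraries, and each of the 5 batches named in the labels held 1 library of every group. What else the libraries of a batch share is not given in the labels.

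Cytochromes P450 are haem enzymes of the endoplasmic reticulum that insert an oxygen atom into lipophilic substrates, with electrons passed on by a reductase or by cytochrome b5. In worms, cyp-35 genes are known as intestinal genes that foreign compounds induce strongly, which has made them reporters of exposure. Members of the cyp-35A group are also known to affect fat storage.

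All 9 genes lie on chromosome V (WBcel235). The block of cyp-35A5 (plus strand, 3936326 to 3938597), cyp-35B1 (plus strand, 3939032 to 3941237) and cyp-35B2 (plus strand, 3942160 to 3944523) has gaps of 434 and 922 bp between genes. It continues with cyp-35B3, a 10th cyp-35 gene of the table that was not among those chosen and had 0 to 3 reads per library. The gene cyp-35A3 (plus strand, 4022609 to 4024482) follows 75564 bp after cyp-35B3, and cyp-35A4 (plus strand, 4031619 to 4033446) 7136 bp after cyp-35A3. On the minus strand, cyp-35A1 (7359929 to 7361773) and cyp-35A2 (7362319 to 7364182) are 545 bp apart. The single genes cyp-35C1 (minus strand, 13896663 to 13898487) and cyp-35D1 (plus strand, 16069238 to 16071318) lie further along.
Each member has 1 annotated transcript. All 5 cyp-35A genes have 7 exons and a coding sequence of 494 codons, cyp-35C1 has 7 exons and 495 codons, cyp-35B1 and cyp-35B2 have 5 exons and 499 codons, and cyp-35D1 has 6 exons and 499 codons. The libraries were made with a kit that keeps the strand, but the strand setting of the counting and the handling of reads that match several genes are not given in the sources used here. Reads shared by close copies could therefore have been split or dropped, and the separate values of the cyp-35A genes are uncertain to that extent. Exons of cyp-35B1 overlap a non-coding RNA of the opposite strand by 102 bp, and those of the other 8 genes overlap no annotated gene.

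Total counts ranged from 20644549 to 27474535 in untreated, from 22148505 to 24018538 in DMSO and from 12485842 to 24872334 in UA libraries, with the lowest total in the UA library of batch 5. Levels are given in CPM, the counts scaled to a common library size after TMM normalization. Of the 9 genes, 8 passed the filter of 10 reads in a library and 1 CPM in 3 libraries, and they were fitted with edgeR's quasi-likelihood model among 14037 genes with group and batch as terms. Genes are described as called where the Benjamini-Hochberg adjusted p of this model was below 0.02. The gene left out was cyp-35A1, which reached 1 CPM in 0 libraries.

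The order of the genes by level was taken per kb of exon. In untreated larvae, cyp-35A2 was highest at 70.3 ± 12.4 CPM per kb (SD, n = 5), followed by cyp-35C1 at 31.1 ± 6.29 and cyp-35A3 at 23.5 ± 4.73. The ranges of cyp-35C1 and cyp-35A3 overlapped, whereas every untreated library had more cyp-35A2 than any had cyp-35C1. The gene cyp-35A5 stood at 8.45 ± 2.07 and cyp-35A4 at 4.61 ± 1.10 CPM per kb, again with overlapping ranges. Below these, cyp-35D1 was at 1.70 ± 0.489, cyp-35B1 at 1.19 ± 0.702, cyp-35B2 at 0.626 ± 0.363 and cyp-35A1 at 0.219 ± 0.143 CPM per kb, each overlapping the next. The untreated levels per kb therefore spanned the subfamily from abundant to barely detected.
In UA larvae cyp-35A2 (28.3 ± 5.67 CPM per kb, SD, n = 5) and cyp-35C1 (14.6 ± 2.79) still led. The level of cyp-35A3 was 4.79 ± 1.68 CPM per kb, in the range of cyp-35A5 (5.1 ± 1.44). The level of cyp-35A4, at 0.942 ± 0.323 CPM per kb, was in the range of cyp-35B1 (1.04 ± 0.267), although in untreated larvae every library had more cyp-35A4 per kb than any had cyp-35B1.

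Between UA and DMSO, 5 of the 8 tested genes were called and all 5 were lower with UA. They were the 4 tested cyp-35A genes and cyp-35C1, while cyp-35B1, cyp-35B2 and cyp-35D1 were not called. Of all 14037 tested genes, 0.235% were called lower in this comparison, but since it chose the family nothing is read from that difference. The median log2 fold change was -1.15 over the 8 genes and 0.00 over all tested genes.

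The largest change was that of cyp-35A3, a gene used as a reporter of exposure to foreign compounds. In batches 1 to 5 it was at 40.8, 44.8, 44.9, 58.4 and 45.2 CPM with DMSO. In UA larvae of the same batches it was at 10.4, 10.4, 6.88, 5.1 and 5.19 CPM. Untreated larvae had 33.1, 34.8, 38.8, 49.5 and 30.2 CPM. Every UA library lay below every control library. Batch 4 held the highest control values together with the lowest UA value, which was close to that of batch 5. Against DMSO its log2 fold change was -2.60 (standard error 0.15), which is 6.08 times less, and that against untreated was -2.27 (standard error 0.15). Within batches, the log2 difference from DMSO ranged from -1.96 in batch 1 to -3.49 in batch 4.

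Its neighbour cyp-35A4 moved by nearly the same factor from a lower level. It was at 7.22, 6.53, 9.56, 12.2 and 8.92 CPM with DMSO in batches 1 to 5. With UA it was at 2.15, 1.75, 1.41, 1.05 and 0.943 CPM. In untreated larvae it was at 5.37, 5.83, 7.34, 9.70 and 7.52 CPM. Again every UA library lay below every control library, with UA counts of 12 to 53 reads. Its log2 fold change was -2.54 (standard error 0.18) against DMSO and -2.23 (standard error 0.19) against untreated. The count of cyp-35A3 divided by that of cyp-35A4 was 5.31 ± 0.850 in untreated, 5.42 ± 0.886 in DMSO and 5.2 ± 0.504 in UA libraries (SD, n = 5 each). The ratio of these neighbours thus differed between the groups by less than its spread between libraries.

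The most abundant member, cyp-35A2, which is known from gene knockdown to affect fat storage, was lower by a smaller factor. It was at 118.9, 106, 117, 161 and 117 CPM with DMSO in batches 1 to 5. The UA larvae had 59.5, 46.4, 39.1, 43.7 and 36.4 CPM. The untreated larvae had 101, 101, 111, 146 and 99.0 CPM. The UA libraries lay below every library of both control groups, which overlapped each other. On the log2 scale the fold change was -1.45 (standard error 0.097) against DMSO and -1.30 (standard error 0.097) against untreated.

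The single gene cyp-35C1, another xenobiotic-inducible P450, lies 6532480 bp from cyp-35A2. In batches 1 to 5 it was at 52.1, 46.5, 49.9, 67.2 and 48.6 CPM with DMSO. With UA it was at 28.4, 22.8, 20.8, 23.4 and 16.6 CPM. Untreated larvae had 41.8, 45.1, 51.6, 62.4 and 37.7 CPM. The UA libraries lay below all control libraries. Its log2 fold change was -1.23 (standard error 0.091) against DMSO and -1.07 (standard error 0.091) against untreated. Its count was 0.426 ± 0.0315 of that of cyp-35A2 in untreated, 0.427 ± 0.0121 in DMSO and 0.498 ± 0.0349 in UA libraries (SD, n = 5 each). This ratio was 0.456 to 0.536 with UA and 0.413 to 0.440 with DMSO. In untreated libraries it was 0.381 to 0.464, which overlaps the range with UA. Against DMSO, cyp-35C1 was thus less reduced than cyp-35A2, a description of the libraries that chose the family.

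The smallest change among the called genes was that of cyp-35A5, the cyp-35A gene in the block with the cyp-35B genes. It was at 18, 19.9, 18.2, 23.4 and 13.9 CPM with DMSO in batches 1 to 5. With UA the values were 11.4, 9.77, 8.15, 9.79 and 4.87 CPM. In untreated larvae they were 13.2, 14.97, 14.9, 19.9 and 10.02 CPM. All UA libraries lay below all DMSO libraries, but the UA library of batch 1 was above the untreated library of batch 5. Its fitted change on the log2 scale was -1.07 (standard error 0.093) against DMSO and -0.71 (standard error 0.095) against untreated, with 5 of 5 batches lower in both. Without the batch term in the fit, cyp-35A5 was not called in either comparison.

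**Figure D1:**
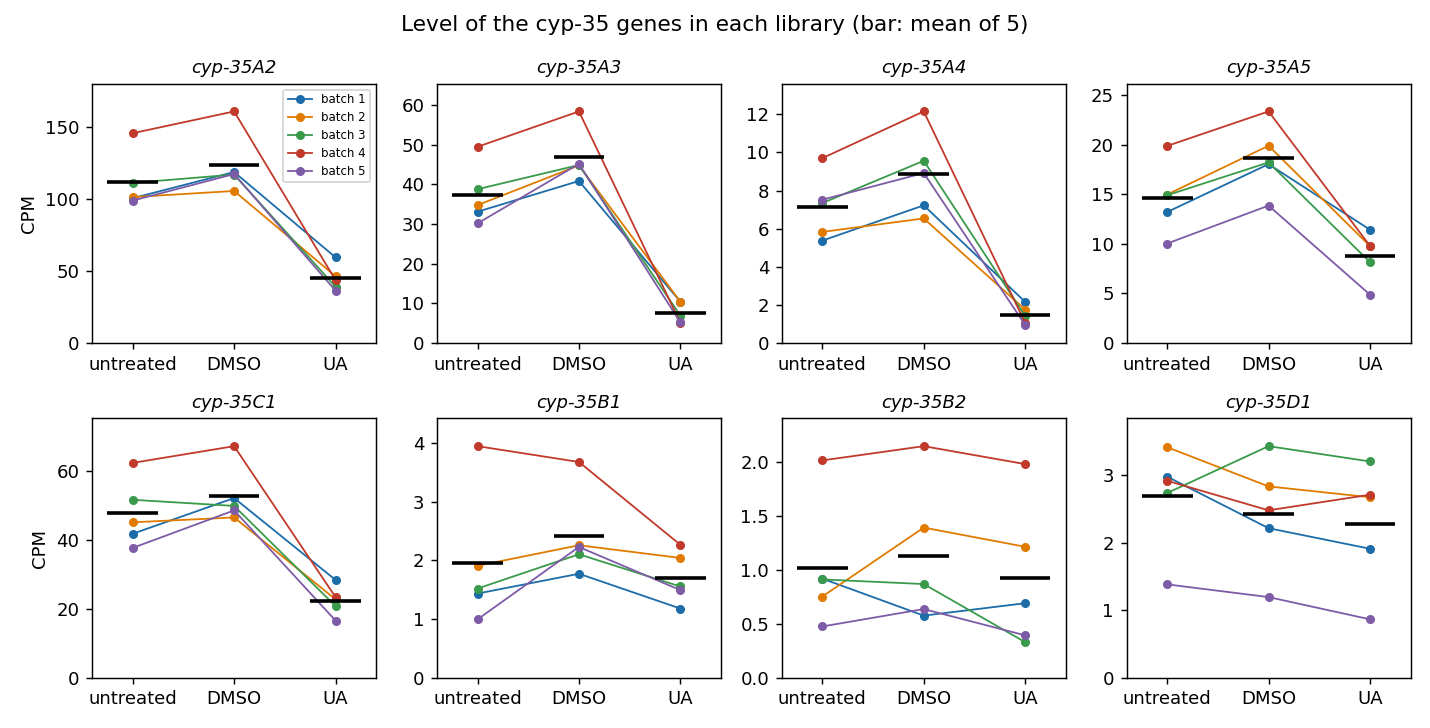
Level of the 8 tested cyp-35 genes in CPM (y axis, linear and starting at 0) in untreated, DMSO and UA libraries, with a point for each library, a line joining the libraries of a batch and a black bar at the mean of 5. In cyp-35A2, cyp-35A3, cyp-35A4 and cyp-35C1 every UA library is below all controls (for cyp-35A3 at most 10.4 against at least 30.2 CPM), whereas the groups overlap in cyp-35B1, cyp-35B2 and cyp-35D1.

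The genes not called were also the weakly expressed ones. The cyp-35B1 gene, known to be regulated by the insulin pathway factor DAF-16, was at 1.77, 2.26, 2.10, 3.68 and 2.23 CPM with DMSO in batches 1 to 5. With UA it was at 1.18, 2.04, 1.55, 2.27 and 1.49 CPM. Untreated larvae had 1.43, 1.91, 1.52, 3.95 and 0.994 CPM. UA was below DMSO in 5 of 5 batches but above untreated in 3 of 5. Its log2 fold change was -0.52 (standard error 0.17) against DMSO and -0.19 (standard error 0.18) against untreated.
For cyp-35B2 the counts were 5 to 52 reads. It was at 0.576, 1.39, 0.869, 2.15 and 0.637 CPM with DMSO and at 0.691, 1.22, 0.330, 1.98 and 0.393 CPM with UA. The untreated values of cyp-35B2 were 0.919, 0.753, 0.912, 2.02 and 0.475 CPM. Its groups overlapped almost entirely and batch 4 was high in all of them. The log2 fold change of cyp-35B2 was -0.29 (standard error 0.23) against DMSO and -0.17 (standard error 0.23) against untreated.
The cyp-35D1 gene, whose product is known to hydroxylate the anthelmintic thiabendazole, was at 2.22, 2.83, 3.43, 2.48 and 1.19 CPM with DMSO in batches 1 to 5. With UA it was at 1.91, 2.67, 3.20, 2.71 and 0.864 CPM. Untreated larvae had 2.98, 3.42, 2.74, 2.92 and 1.38 CPM. The groups overlapped, and batch 5 was lowest in every group. The log2 fold change was -0.09 (standard error 0.14) against DMSO and -0.25 (standard error 0.14) against untreated.
The untested cyp-35A1 had 2 to 16 reads in untreated, 4 to 17 in DMSO and 0 to 12 in UA libraries. Its level was 0.339 ± 0.220, 0.413 ± 0.202 and 0.218 ± 0.206 CPM (SD, n = 5 each), which overlap widely. The UA library of batch 5 had 0 reads, which allows up to 0.236 CPM at its depth (3 counts, counting error only). With so few reads, a difference of moderate size between groups could have been missed.

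Against untreated larvae the same 5 genes were called lower with UA, where 0.563% of all tested genes were. Both comparisons use the same UA libraries. All UA libraries lay below all DMSO libraries in 5 of the 8 genes (0.306% of all tested genes) and below all untreated libraries in 4 of the 8 (0.335%). As the family was chosen on these differences, the counts are a description only.
The size of the difference varied between batches in a shared way. In all 5 called genes the smallest log2 difference between UA and DMSO was that of batch 1. The largest was that of batch 4 for cyp-35A2 (-1.88), cyp-35A3 and cyp-35A4 (-3.42), and that of batch 5 for cyp-35A5 (-1.49) and cyp-35C1 (-1.54). Each batch has 1 library per group, so the difference between batches was not tested.

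**Figure D2:**
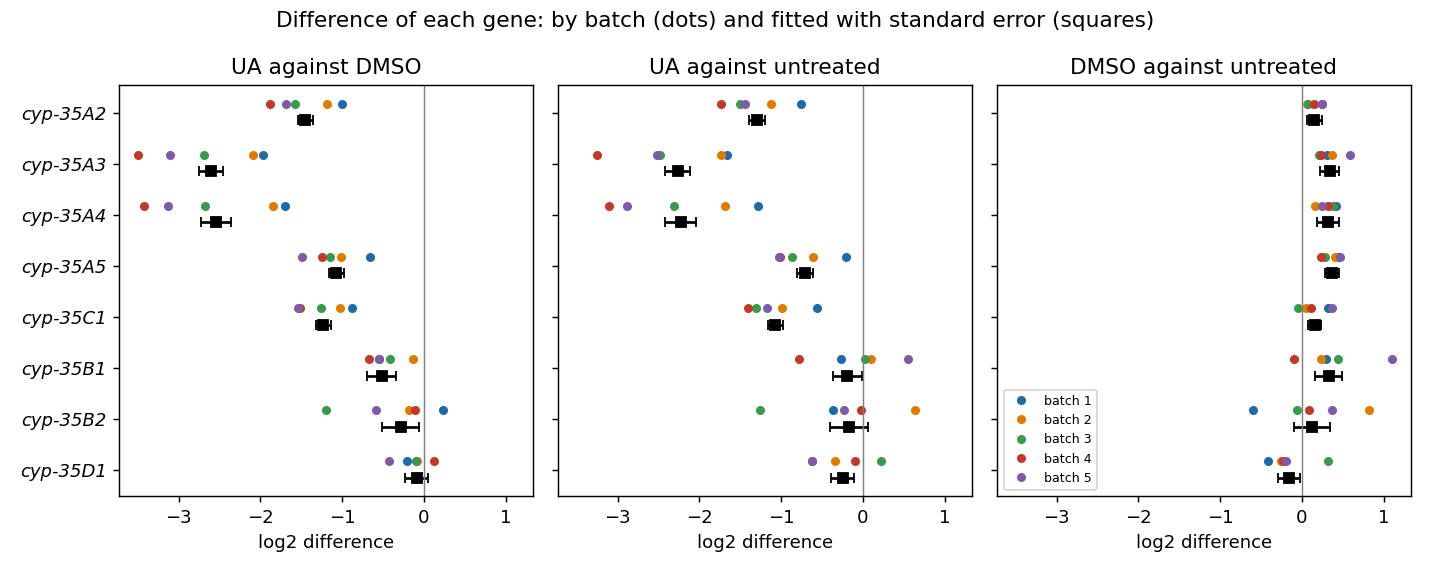
Log2 difference (x axis) of each cyp-35 gene in the 3 comparisons; coloured dots are the differences within single batches and black squares the fitted log2 fold changes with their standard errors. The dots of cyp-35A3 run from -1.96 to -3.49 for UA against DMSO, while for DMSO against untreated all fitted values lie between -0.16 and 0.36.

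The counts of the cyp-35A copies did not keep their proportions. Summed over cyp-35A1 to cyp-35A5, the level was 171 ± 32.0 CPM in untreated, 199 ± 32.1 in DMSO and 63.1 ± 13.9 CPM in UA libraries (SD, n = 5 each). With the 5 copies counted as 1 gene, the log2 fold change of UA against DMSO was -1.65 (standard error 0.10). In the summed count, reads moved between copies of the group cancel out. Reads dropped for matching several copies would be missing from the sum as well.
Within the sum, cyp-35A3 made up 20.5% to 22.5% of the cyp-35A reads in untreated, 22.1% to 25.3% in DMSO and 8.54% to 15.2% in UA libraries. The share of cyp-35A4 was 4.18% ± 0.627 in untreated, 4.43% ± 0.599 in DMSO and 2.28% ± 0.378 in UA libraries (SD, n = 5). The share of cyp-35A2 was 65.4% ± 1.29 in untreated, 62.3% ± 1.78 in DMSO and 71.7% ± 3.44 in UA libraries. In UA larvae the sum thus held less of the neighbours cyp-35A3 and cyp-35A4 and more of cyp-35A2. The share of cyp-35A5 was 8.49% ± 0.995 in untreated, 9.42% ± 1.35 in DMSO and 13.8% ± 2.24 in UA libraries. The share of cyp-35A1 was at most 0.675% in any library. These shares rest on the UA libraries that chose the family and were not tested. They also depend on how reads matching several copies were counted, which is not given.

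**Figure D3:**
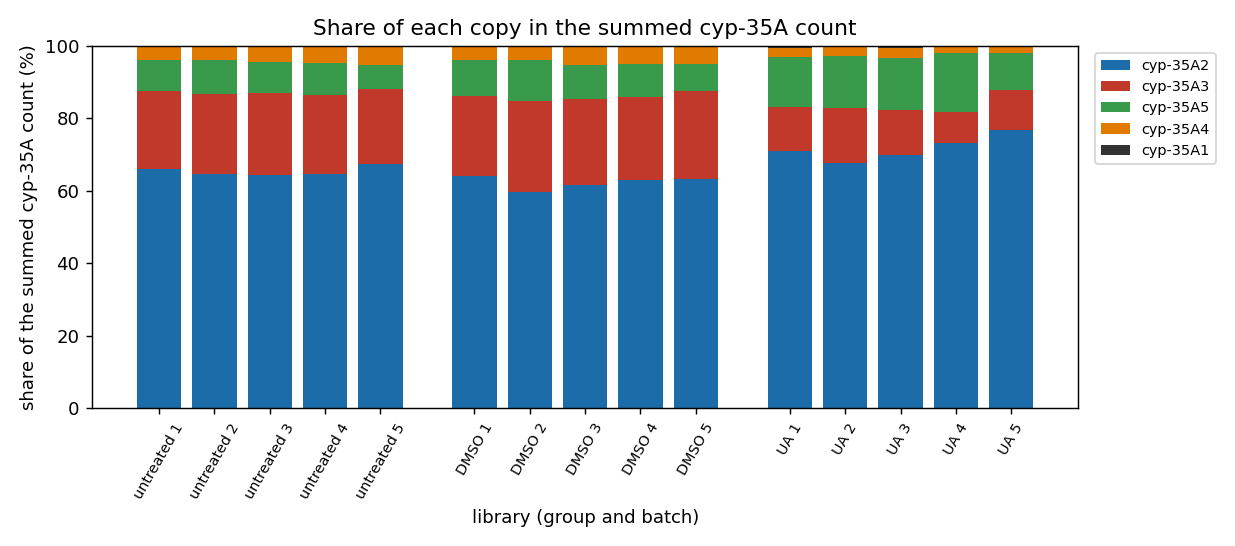
Share of each copy (y axis, in % of the summed cyp-35A count) in each of the 15 libraries, grouped by treatment. The red segment of cyp-35A3 is at least 20.5% in all control libraries and at most 15.2% in the UA libraries.

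The vehicle alone was compared with no treatment to see what DMSO contributes. None of the 8 genes was called between DMSO and untreated larvae by edgeR (0 of 8, where 0.121% of all tested genes were called), and 3 had an unadjusted p under 0.05, as had 7.91% of all tested genes. The DMSO libraries are those against which UA was compared when the family was chosen, so a high DMSO level would favour the choice. A positive log2 fold change was found in 7 of the 8 genes, and in 7549 of all 14037 tested genes. The median was 0.24 over the 8 genes, against 0.01 over all tested genes. The 8 genes share these libraries, so their signs are not independent.
The largest was that of cyp-35A5, at 0.36 (standard error 0.085, adjusted p = 0.117, edgeR), with DMSO above untreated in 5 of 5 batches by 0.23 to 0.46. For cyp-35A3 it was 0.34 (standard error 0.12, adjusted p = 0.458, edgeR) and for cyp-35A4 0.32 (standard error 0.13, adjusted p = 0.572, edgeR), each with 5 of 5 batches higher. The gene cyp-35A2 was also higher in 5 of 5 batches, by 0.15 (standard error 0.090, adjusted p = 0.725, edgeR). These are the 4 tested genes of the cyp-35A group, and their DMSO and untreated ranges overlapped. How many of all tested genes were higher in 5 of 5 batches was not determined.
Outside the cyp-35A group, cyp-35B1 was at 0.33 (SE 0.16, adjusted p = 0.656 by edgeR), cyp-35C1 at 0.16 (SE 0.083, adjusted p = 0.679) and cyp-35B2 at 0.12 (SE 0.22, adjusted p = 0.945). The gene cyp-35D1 had the opposite sign, at -0.16 (SE 0.13, adjusted p = 0.835 by edgeR).
In a fit of the untreated and DMSO libraries alone, cyp-35A3 (adjusted p = 0.000733) and cyp-35A5 (adjusted p = 0.00140) passed the threshold of edgeR, as did 0.525% of the genes in that fit, so the call depends on whether the UA libraries enter the estimate of the spread. Without the UA library of batch 1, cyp-35A5 passed as well (adjusted p = 0.0157, edgeR; 0.143% of all genes in that fit). DESeq2 called 0 of the 8 genes, and 1 had an unadjusted p under 0.05, as had 4.38% of all genes.

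Batches were compared in the 10 untreated and DMSO libraries, without the UA libraries that chose the family. All 8 tested genes differed between batches (edgeR's quasi-likelihood F test, adjusted p from 2.14e-07 for cyp-35A2 to 0.000621 for cyp-35D1). So did 50.6% of 13899 genes tested, and differences between batches were therefore common in these libraries. In 7 of the 8 genes the mean over both groups was highest in batch 4, as in 24.9% of all tested genes.
The batch 4 level of cyp-35B2 was 1.05 above the group mean on the log2 scale, that of cyp-35B1 0.88 and that of cyp-35A4 0.47. In cyp-35A2, cyp-35A3, cyp-35A5 and cyp-35C1 it was 0.38 to 0.41 above. In cyp-35D1 the batches differed in another way, with batch 2 highest (0.34) and batch 5 lowest (-0.88). Without batch 4, 3 of 7 genes tested passed the threshold (cyp-35A4, cyp-35A5 and cyp-35D1), where 41.5% of all tested genes did.
Within the UA group, 2 of the 8 genes were highest in batch 4, namely cyp-35B1 and cyp-35B2. The 5 called genes were highest in the UA library of batch 1, although cyp-35A3 was nearly level there (10.407 CPM) with batch 2 (10.403 CPM). The genes with a high level in batch 4 of the controls thus did not all have one in batch 4 of UA. How many of all tested genes were highest in these UA batches was not determined, so this describes the members only.

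**Figure D4:**
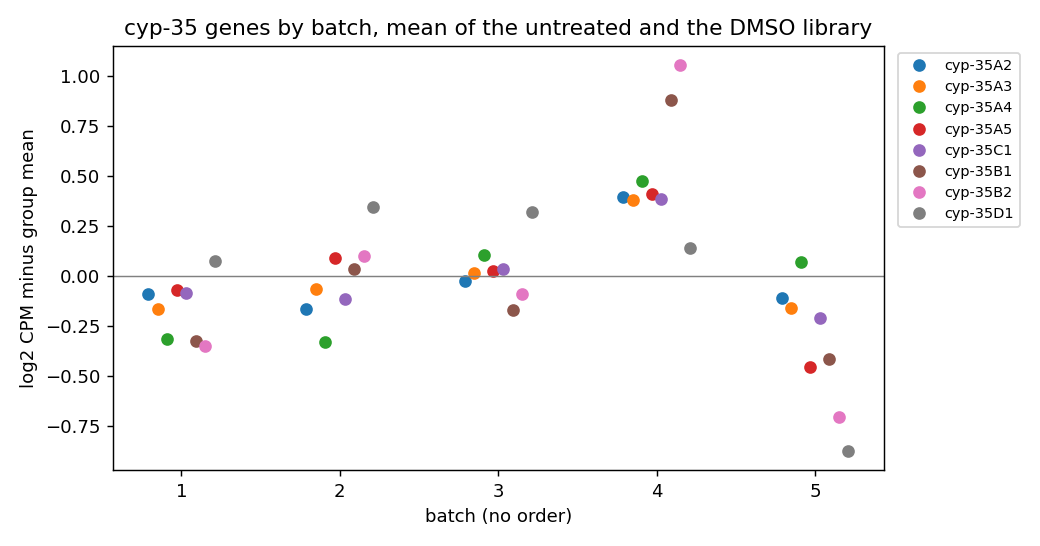
Deviation of log2 CPM from the group mean (y axis), averaged over the untreated and the DMSO library of each batch (x axis, batches in no order), for the 8 tested cyp-35 genes. Batch 4 holds the highest value of 7 genes, up to 1.05 for cyp-35B2, and cyp-35D1 has its lowest, -0.88, in batch 5.

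Across these 10 libraries with group means removed, the correlation of log2 CPM between pairs of members ranged from -0.13 to 0.94, with a median of 0.76 over 28 pairs. It was 0.94 between cyp-35A2 and cyp-35C1, and 0.94 between cyp-35A3 and cyp-35B1, genes of different blocks. With cyp-35D1, the correlation was 0.72 for cyp-35A5 and at most 0.50 for the other members. The untreated and the DMSO library of a batch share that batch, and batch 4 was the highest for 7 of the 8 genes, so the 10 points are not independent and no test was made. Pairs of other genes were not examined, so whether these correlations are unusual in these libraries is not known.
The genes most like the mean profile of the members over the same libraries were ugt-1 (r = 0.96), a UDP-glucuronosyltransferase gene, followed by D1054.5, T27F6.1, C23H4.3 and Y73B6BL.31 (r = 0.95 each). They were chosen as the genes with the highest correlation, which therefore carries no test. Between UA and DMSO, ugt-1 changed by -0.34 on the log2 scale (adjusted p = 0.00421, edgeR) and the 4 others by -0.05 to 0.07.

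Genes next to the members on the chromosome were examined as well, a list drawn up once the positions were known. Of 11 adjacent genes outside the subfamily, 5 were tested and none passed edgeR's threshold in any of the 3 comparisons (0 of 5). Among all tested genes, 0.271% passed it between UA and DMSO, 1.05% between UA and untreated and 0.121% between DMSO and untreated. The unadjusted p was under 0.05 for 3 of the 5 between UA and DMSO (14% of all tested genes). The gene K09D9.1 lies between cyp-35A3 and cyp-35A4, 564 bp after the former and on the same strand. It was at 2.88 ± 1.35 CPM with DMSO and 3.51 ± 1.89 CPM with UA (SD, n = 5). UA was above DMSO in 5 of 5 batches, by 0.28 on the log2 scale (SE 0.13, adjusted p = 0.325 by edgeR). Untreated larvae had 3.27 ± 1.14 CPM of K09D9.1, above DMSO in 5 of 5 batches, and the difference of UA from untreated was 0.09 (adjusted p = 0.825, edgeR), positive in 3 of 5. The cyp-35A genes on either side had lower values with UA in every batch.
The gene sptl-3, a serine palmitoyltransferase subunit of sphingolipid synthesis, lies on the opposite strand 247 bp from cyp-35C1. It changed by 0.02 (standard error 0.036, adjusted p = 0.836, edgeR). The nuclear receptor gene nhr-176, known to be needed for the induction of cyp-35D1 by thiabendazole, starts 6 bp after cyp-35D1 on the same strand. It was at 4.84 ± 0.695 CPM with DMSO and 4.95 ± 0.453 CPM with UA, a difference of 0.03 on the log2 scale (SE 0.11, adjusted p = 0.940 by edgeR), and like cyp-35D1 it was not called.

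Of 3 electron donors of P450 enzymes, 1 was called lower with UA against both controls. Among all tested genes, 0.235% were called lower against DMSO and 0.563% against untreated. The cytochrome b5 gene cytb-5.1 fell from 126 ± 24.7 CPM with DMSO to 101 ± 14.9 CPM with UA, a difference of -0.31 on the log2 scale (SE 0.050, adjusted p = 0.00404 by edgeR) and was lower in 5 of 5 batches. Against untreated larvae its change was -0.31 (adjusted p = 0.00183, edgeR). The P450 reductase gene emb-8 changed by -0.06 (adjusted p = 0.526, edgeR) and cytb-5.2 by 0.01 (adjusted p = 0.971, edgeR) between UA and DMSO.
Of 16 genes of regulators of detoxification, lipid metabolism and the insulin pathway, edgeR called 0 with UA against DMSO and 0 against untreated. Of all tested genes it called 0.271% and 1.05%, so 0 of 16 says little about these regulators. The unadjusted p was under 0.05 for 5 of them against DMSO, where it was for 14% of all tested genes, and for 8 of them against untreated, where it was for 12.3%. Against DMSO the lowest adjusted p was 0.0788, for the nuclear receptor gene daf-12 (log2 fold change 0.19, higher in 5 of 5 batches), which was at 0.13 against untreated (adjusted p = 0.203, edgeR). Against untreated the lowest was 0.0589, for the nuclear receptor gene nhr-66 (log2 fold change 0.19, higher in 4 of 5 batches), which was at 0.11 against DMSO (adjusted p = 0.313, edgeR). The xenobiotic receptor gene nhr-8 was at 0.26 against DMSO (adjusted p = 0.0831, edgeR), higher in 5 of 5 batches, and at 0.17 against untreated (adjusted p = 0.255, edgeR), higher in 3 of 5. The mediator subunit gene mdt-15 differed from DMSO by 0.02, and the aryl hydrocarbon receptor gene ahr-1, at 0.945 CPM with DMSO, by 0.10.
Of the 66 other genes named cyp, 51 were tested, of which UA larvae had 6 lower and 1 higher than DMSO larvae past the threshold, where 0.271% of all tested genes passed it in either direction. Their median log2 fold change was -0.09. That of the 8 cyp-35 genes was -1.15 in the comparison that chose the family, so nothing is read from the difference. Those lower were cyp-34A10 (-1.28), cyp-13A12 (-0.68), cyp-33E2 (-0.47), cyp-25A3 (-0.46), cyp-34A9 (-0.46) and cyp-14A2 (-0.45), and cyp-33D3 was higher by 1.40. Against untreated larvae 4 were lower and 2 higher past the threshold (1.05% of all tested genes in either direction). Those lower were cyp-34A10 (-1.47), cyp-29A3 (-0.56), cyp-34A9 (-0.52) and cyp-25A3 (-0.52), and those higher were cyp-33D3 (1.15) and cyp-36A1 (0.47). The adjusted p against untreated was 0.0616 for cyp-13A12, 0.0203 for cyp-33E2 and 0.0848 for cyp-14A2 (edgeR), so these 3 genes passed the threshold in the comparison with DMSO alone.

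In whole animals, fewer cells of a type and less RNA per cell cannot be told apart. The cyp-35 genes are known from the intestine, and all 8 intestinal marker genes examined (ges-1, vha-6, elt-2, elt-7, ifb-2, act-5, pept-1 and asp-1) were expressed. Their summed level ranged from 5464 to 6647 CPM in untreated, from 5722 to 6630 in DMSO and from 5783 to 6746 CPM in UA libraries. Between UA and DMSO, edgeR called 0 of the 8, where it called 0.271% of all tested genes. An unadjusted p under 0.05 was found for 2 of the 8, and for 14% of all tested genes. The 8 log2 fold changes ranged from -0.10 to 0.10. The 20 markers of hypodermis, muscle, neurons, germline and sperm were all expressed too, and edgeR called 0 of them in this comparison (2 at an unadjusted p under 0.05).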

How the data were processed

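The authors mapped single-end reads of poly-A selected RNA to WBcel235 with STAR 2.5.2b, marked duplicates with Picard and assigned reads on exons to genes with featureCounts 1.5.2, and they deposited raw counts of 20541 genes in 15 libraries. Groups and batches come from the sample titles. Libraries with the same batch number in the titles were taken as paired. Their deviations from the group means correlated by 0.413 to 0.844 across genes. Libraries of different batches were not compared in this way, so these correlations cannot show the pairing. The batch was made a term of the main fit because the titles name it, although the study's methods name none.

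Counts were fitted in R 4.3.3 with edgeR 4.0.16 (TMM factors, quasi-likelihood method of older versions, design of group and batch), adjusted over 14037 genes with at least 10 reads in a library and 1 CPM in 3 libraries, and called at 0.02. Log2 CPM by batch used a prior count of 2. Standard errors were obtained as the absolute log2 fold change over the root of its F statistic. The batch test used the 10 control libraries. Adjusted p-values are those of edgeR unless DESeq2 1.42.0 is named. Both fits were run on simulated data with the same dispersion for every gene. For the batch test, only 200 genes were given a batch effect, whereas 50.6% of genes were called in these libraries. The simulated settings thus differ from these data, and nothing about the calls here is read from them. The study calls the libraries of a group independent replicates. Whether they came from separate cultures is not given in the sources used here. The p-values of the main fit and the batch test are judged against the spread left between these libraries after group and batch are fitted.

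The members, lists and tests were chosen with earlier results of these data known. The text names all 9 members, genes of the lists and other cyp genes past the threshold, the 5 genes most like the family profile and, chosen after their values were seen, K09D9.1, sptl-3, nhr-176, emb-8, cytb-5.2, daf-12, nhr-66, nhr-8, mdt-15 and ahr-1. Positions come from the Ensembl annotation of WBcel235, which held 20194 of the 20541 gene identifiers. Gene and protein sequences were not used here. The alternatives were DESeq2, RLE factors, the edgeR 4 method, no filter, 10 reads in every library, only the groups compared, no batch term, a threshold of 0.05, summed copies, and the omission of single batches or libraries. Python 3.11.15 with matplotlib 3.10.9 drew the figures.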

Additional observations from a re-analysis of the deposited data

Results flagged for a closer look

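In 6 of 27 groups of 5 libraries, 1 for each gene and treatment, 1 library stood apart from the other 4 by Dixon's criterion, where chance gives 1.35. All 6 were libraries of batch 4 and stood above the others. In untreated larvae, cyp-35A2 was at 146 CPM in batch 4 against 99.0 to 111 CPM in the remaining batches, and cyp-35B2 was at 2.02 CPM against 0.475 to 0.919 CPM. In DMSO larvae of batch 4, cyp-35A2 was at 161 CPM against 106 to 118.9 CPM in the others. The DMSO library of batch 4 also had 58.4 CPM of cyp-35A3 (40.8 to 45.2 CPM in the others), 67.2 CPM of cyp-35C1 (46.5 to 52.1 CPM) and 3.68 CPM of cyp-35B1 (1.77 to 2.26 CPM). The genes are correlated across these libraries, so the 6 values are not independent. Without batch 4, 5 genes were called between UA and DMSO, as with it. The cause was not tested.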

How the results depend on the processing

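Between UA and DMSO and between UA and untreated, 5 genes were called in each of 20 fits with 1 batch or 1 library omitted (8 genes tested in 19 of them and 7 without batch 4, where cyp-35B2 did not pass the filter), and under every other alternative except those named here. With the copies summed, 2 of 4 rows were called in each comparison, the cyp-35A sum and cyp-35C1. Without the replicate block, 4 genes were called in each, cyp-35A5 being lost (adjusted p = 0.194 against DMSO, edgeR), and 0 between DMSO and untreated. Between DMSO and untreated, 2 genes were called in the fit of these groups alone, and 0 to 1 with 1 batch or library omitted. The log2 fold change of cyp-35B2 in that comparison ranged from -0.060 to 0.27 in those fits, below 0 without batch 2 (-0.05) or without the untreated library of batch 2 (-0.060). In the batch test, 3 to 8 genes were called when a batch was left out, the lowest without batch 4. Without a filter, cyp-35A1 was at -0.85 between UA and DMSO (adjusted p = 0.578, edgeR). The depth limits cyp-35A1 and cyp-35B2 most.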
